A study of Mus musculus with 24 samples.

Results

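Transcripts of 10 contractile genes were followed in mouse embryonic stem cells (ESCs) as the cells were differentiated with retinoic acid (RA) after depletion of the ribosome biogenesis factor RSL24D1. The genes are the 4 muscle actins Acta1, Acta2, Actc1 and Actg2, the actin-bundling protein gene Tagln, the calponins Cnn1 and Cnn2, the myosin regulatory light chain gene Myl9, and the tropomyosins Tpm1 and Tpm2. They were taken by gene symbol, 10 of the 54242 symbols measured, and all 10 were among the 16447 genes expressed highly enough to be tested. They were chosen by symbol and on their measured levels in the 8 groups of these libraries, so every difference given for them is a description and not independent evidence.

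All cells derive from CGR8, 1 mouse ESC line. The study's rescue derivative, selected with puromycin, carries a doxycycline-inducible Rsl24d1 that escapes the siRNAs. Cells received a pool of non-targeting siRNAs (si-CTL) or a pool against Rsl24d1 (si-Rsl24d1), each without doxycycline (no rescue) or with it (rescue). Day 0 cells were kept in serum and LIF and collected 72 h after transfection by 1 label and 48 h by another. Day 4 cells were seeded after transfection and treated with 10 nM RA for 4 days. The labels give the vector of the cells without doxycycline as empty, while the methods describe rescue cells kept with or without doxycycline, so which construct the unrescued cells carry is not settled. The series design mentions LIF with RA where the sample labels list serum with RA. Each group has 3 libraries, said to be independent triplicates, 24 in all. Expression is in TPM, a share of each library's transcripts that is corrected for transcript length, and differences are on the log2(TPM + 1) scale.

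Muscle actins are nearly identical in protein sequence and build the thin filaments of smooth muscle (Acta2, Actg2), heart (Actc1) and skeletal muscle (Acta1). Tagln, Cnn1, Myl9 and Tpm2 belong to the contractile apparatus of smooth muscle and of activated fibroblasts. Many of these genes are activated by serum response factor (SRF), which binds a short DNA motif called the CArG box together with myocardin (Myocd) or the actin-sensing coactivators Mrtfa and Mrtfb. Early embryonic cells of several lineages express them transiently, so a rise in their transcripts does not by itself name a cell type.

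Because a CArG box at the start of a gene is the classical feature of this group, the promoters were searched for it by exact match, which for this motif covers both strands at once. RefSeq promoter windows on GRCm38.p6 were at hand for 8 of the 10 genes, all but Tagln and Actg2. In the 250 bases upstream of the start site, 4 of the 8 held an exact box, against 1.47% of all 32817 promoters in the same table. The stretches below are written 5′ to 3′ on the strand of the gene, with the box in capitals, and span chr8:123894829-123894858 (minus strand) for Acta1, chr2:114052903-114052932 (minus) for Actc1, chr10:79988534-79988563 (plus) for Cnn2 and chr2:156775293-156775322 (plus) for Myl9.
Acta1: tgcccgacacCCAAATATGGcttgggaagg
Actc1: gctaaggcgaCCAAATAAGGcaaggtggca
Cnn2: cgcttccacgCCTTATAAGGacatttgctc
Myl9: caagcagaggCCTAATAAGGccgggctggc
The boxes begin 73 bases before the start site of the RefSeq window in Acta1, 47 in Actc1, 56 in Cnn2 and 161 in Myl9. The gene spans given further on come from another annotation. There Actc1 begins further upstream, at chr2:114053548, so its box lies inside that span. Of these 4 genes, Actc1 and Myl9 were among those with the larger difference between siRNAs at day 4 given further on, and Acta1 and Cnn2 among those with the smaller. A match or its absence describes only the letters in this window, and binding was not measured.

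The genes share few stretches of sequence with each other or with other genes, which bears on how well short reads tell them apart. On GRCm38, Acta2 lies at chr19:34241090-34255590, Actc1 at chr2:114047282-114053548, Acta1 at chr8:123891769-123894751, Actg2 at chr6:83512905-83536265, Tagln at chr9:45929619-45936058 and Tpm1 at chr9:67022590-67049406, all on the minus strand. Tpm2 lies at chr4:43514711-43523765 on the minus strand, and Cnn1 (chr9:22099216-22109630), Cnn2 (chr10:79988584-79996062) and Myl9 (chr2:156775420-156781658) lie on the plus strand. Of all 31-base words in their annotated protein-coding transcripts, the share also found in another gene was highest for Acta1, at 4.11%, mostly shared with Actb. It was 1.39% for Acta2, 1.21% for Actg2 and 0.756% for Actc1, and 0 for Tagln and Cnn1.

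The target of the siRNA was lower at day 0 and not at day 4. Rsl24d1 stood at 141 ± 6.1 TPM (SD, n = 3) in si-CTL and 35.7 ± 2.7 TPM in si-Rsl24d1 cells without rescue, and at 107 ± 13 TPM in si-Rsl24d1 cells with rescue. At day 4 the groups without rescue had 97.9 ± 2.7 and 95.1 ± 5.3 TPM. Rescue at day 4 thus added to levels that already matched, by 0.45 in si-Rsl24d1 and 0.27 in si-CTL cells on the log2 scale. The contractile genes thus differed most at a time when the Rsl24d1 transcript did not, and the protein was not measured in these data. The lowest correlation across genes between libraries of 1 group was 0.985. In the day 4 si-Rsl24d1 library of replicate 1 without rescue, Actb, the cytoplasmic beta actin, was at 769 TPM against 1366 and 1079 TPM in the other two. Leaving it out changed none of the calls given for the siRNA at day 4.

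In undifferentiated si-CTL cells the 10 genes covered a wide range. Tpm1 was highest at 244 ± 1.8 TPM, followed by Tagln at 105 ± 2.4, Cnn2 at 62.5 ± 1.9, Tpm2 at 39.1 ± 0.99, Acta2 at 28.3 ± 2.5, Cnn1 at 11.4 ± 1.5, Myl9 at 7.64 ± 0.40 and Acta1 at 6.33 ± 0.41 TPM. The heart actin Actc1 was at 0.809 ± 0.13 TPM, and the enteric smooth muscle actin Actg2 was close to 0, with 0.152, 0.174 and 0 TPM in the 3 libraries. No 2 neighbours in this order overlapped. ESCs thus expressed tropomyosin 1 and transgelin well, and the muscle actins other than Acta2 weakly.

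**Figure D1:**
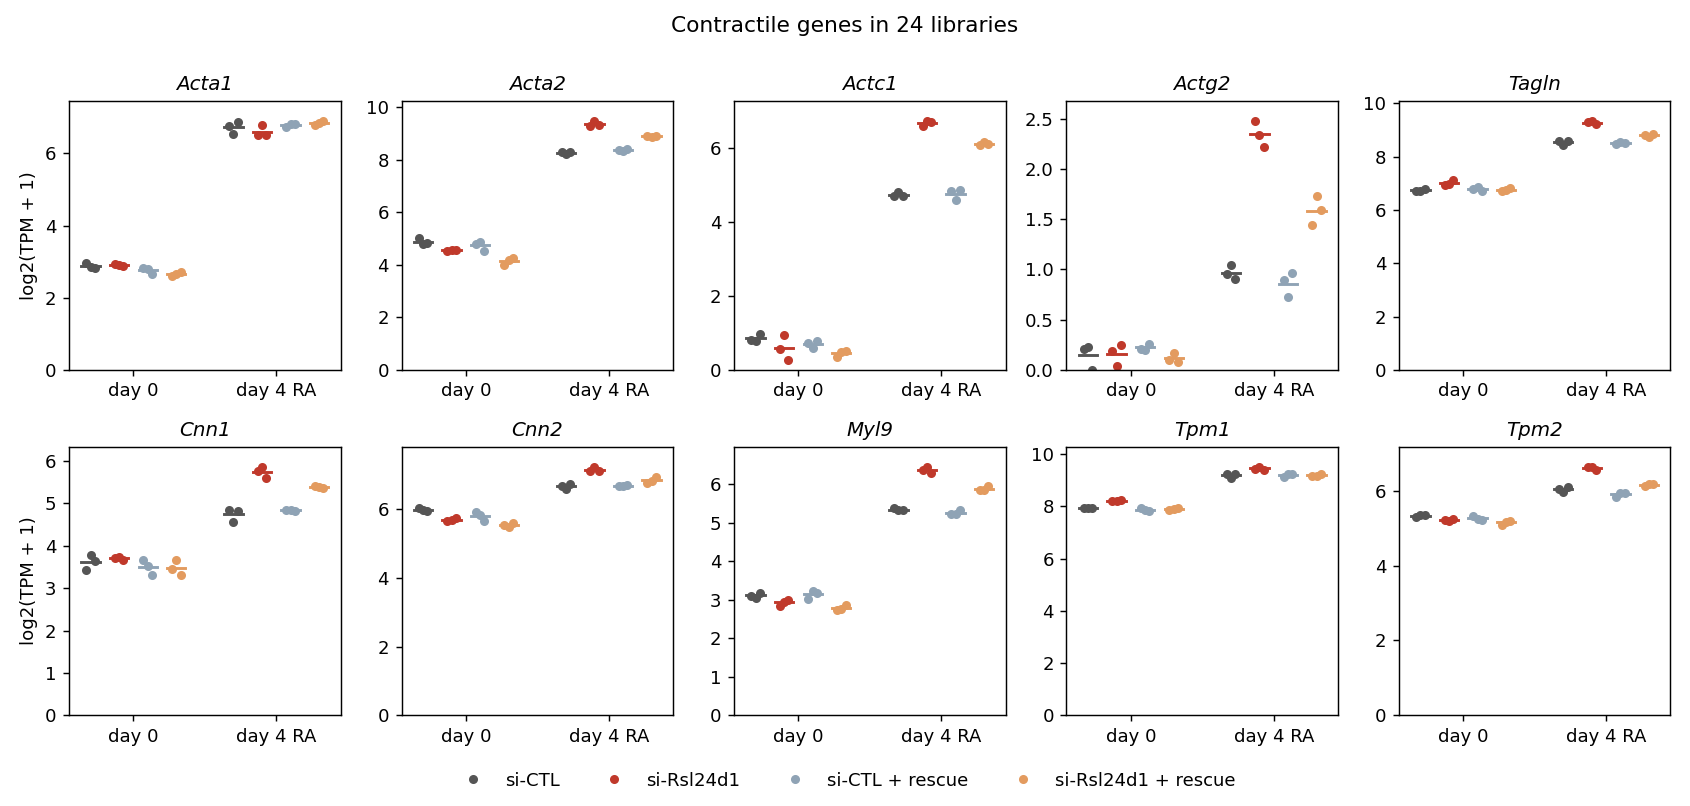
Expression of the 10 contractile genes, log2(TPM + 1) on the vertical axis, in each of 24 libraries (points) with the mean of each group of 3 (bars), for 4 conditions at day 0 and at day 4 of RA. All day 4 libraries lie above all day 0 libraries for every gene, and the unrescued si-Rsl24d1 group is the highest at day 4 for all but Acta1.

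All 10 genes were higher at day 4 than at day 0 in each of the 4 conditions, with no overlap between the 3 libraries of either day. Of all genes, 28.9% to 43.8% were higher without overlap, depending on the condition. In si-CTL cells without rescue, 7 of the 10 rose past the thresholds used throughout, an adjusted p below 0.01 with limma and a difference of more than 1.8-fold (0.848 on the log2 scale), against 15% of all genes tested called in either direction. In si-Rsl24d1 cells without rescue all 10 rose (14.1% of all genes called). With rescue, 8 rose after si-CTL (15.6%) and 10 after si-Rsl24d1 (14.9%). The median difference of the 10 without rescue was 1.53 in si-CTL cells and 2.23 after si-Rsl24d1, while the median over all genes was -0.10 and 0.02, and in rescued si-CTL cells 0.12. Since the rise with RA is among the values known when the genes were selected, nothing is read from these shares. In bulk RNA, more cells of a type and more RNA per cell cannot be told apart.

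Acta2, the actin of vascular smooth muscle, had 31.2, 26.6 and 27.1 TPM at day 0 and 308, 298 and 313 TPM at day 4 in si-CTL cells. The difference was 3.39 (standard error 0.08). Acta1, the skeletal muscle actin, went from 6.04 to 6.80 TPM at day 0 up to 92.8 to 116 TPM at day 4, a difference of 3.85 (SE 0.08). Both were more than 10-fold higher after RA, and Actc1 rose by as much on this scale, from 0.711 to 0.954 TPM up to 24.8 to 26.9 TPM (3.88, SE 0.12). Myl9, which carries the phosphorylation that starts smooth muscle contraction, rose by 2.23. Tagln was at 103, 105 and 108 TPM at day 0 and at 379.9, 348 and 382 TPM at day 4, past both thresholds. Tpm1 rose by 1.26 and Cnn1, a regulator of smooth muscle contraction, by 1.12. Cnn2 (0.68), Tpm2 (0.71) and Actg2 (0.82) passed the adjusted p but not the fold threshold. By the adjusted p alone 24.1% of all genes were higher. Actg2 reached only 0.878 to 1.06 TPM, so it was the lowest of the 10 on both days, and its difference passes the fold threshold with another scaling of the libraries (0.87).

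**Figure D2:**
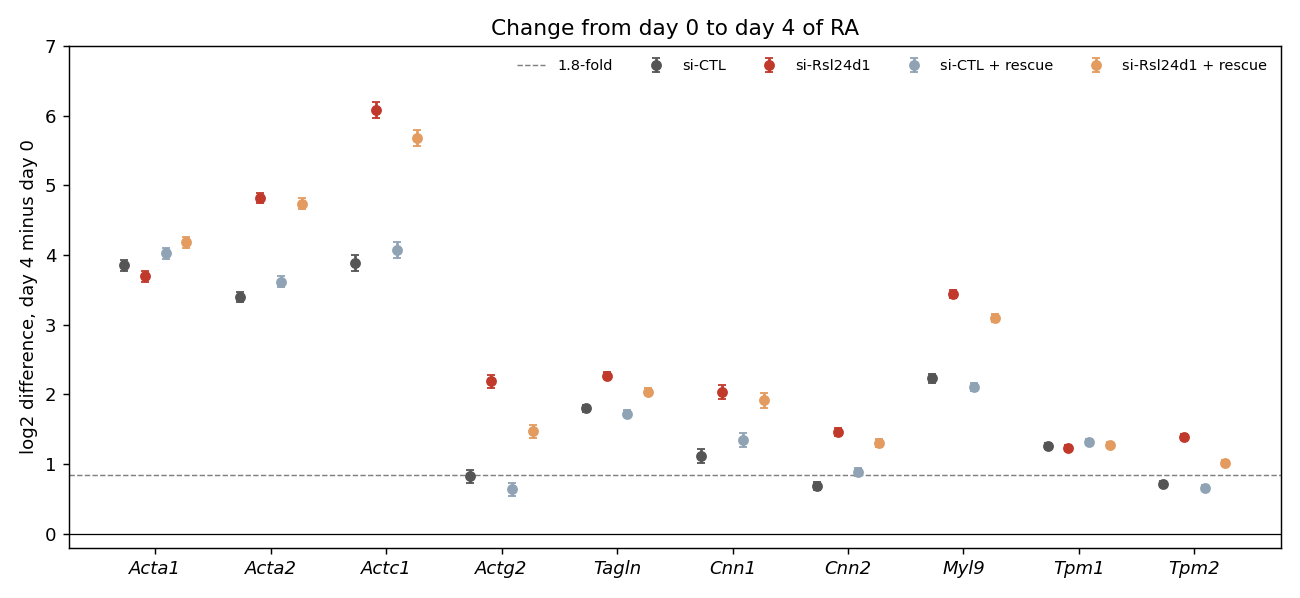
Difference in log2(TPM + 1) between day 4 of RA and day 0 for each gene in 4 conditions, with standard errors from limma, and the 1.8-fold threshold as a dashed line. Points for si-Rsl24d1 cells lie above those for si-CTL cells except for Tpm1, and for Acta1 without rescue, and the largest difference is that of Actc1 at 6.08.

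The muscle actins also grew as a share of all actin transcripts. Actb and Actg1, the cytoplasmic actins, dominated throughout. The 4 muscle actins made up 0.918% ± 0.019 (SD, n = 3) of the summed TPM of the 6 actins in si-CTL cells at day 0 and 14.0% ± 0.31 at day 4. The share of the muscle actins was 13.7% to 14.3% in the 3 si-CTL libraries at day 4. It was 20.3%, 18.5% and 18.7% in the si-Rsl24d1 libraries, with no overlap. With rescue the shares were 13.3% ± 0.54 after si-CTL and 18.0% ± 0.17 after si-Rsl24d1. Measured as a share of the actins, the rescued si-Rsl24d1 cells were thus closer to the unrescued si-Rsl24d1 cells than to the controls. The 6 actins together summed to 4495 ± 505 TPM in unrescued si-Rsl24d1 cells at day 4 and 3632 ± 13 TPM with rescue, and Actg1 (gamma actin) was 0.36 higher in si-Rsl24d1 than si-CTL cells without rescue (adjusted p = 7.7e-06 with limma) but 0.02 with rescue (adjusted p = 0.86).

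**Figure D3:**
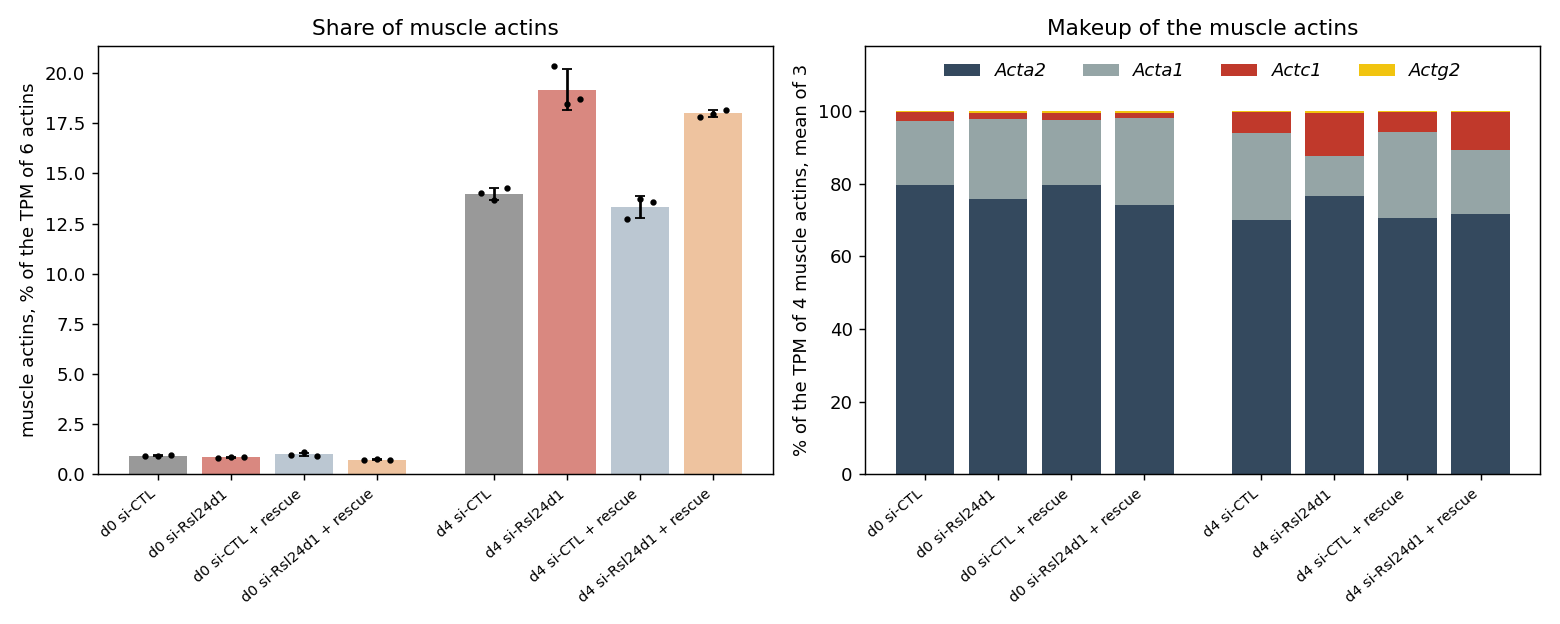
Left, summed TPM of Acta1, Acta2, Actc1 and Actg2 as a percentage of the summed TPM of these and Actb and Actg1, as means with SD (bars) and single libraries (points), in 8 groups, d0 for day 0 and d4 for day 4. Right, the percentage of each muscle actin among the 4. At day 4 Actc1 takes 5.86% of the muscle actin TPM after si-CTL and 11.8% after si-Rsl24d1 without rescue.

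At day 0, before RA, differences of the 10 genes between the siRNAs were small. None of the 10 was called with limma in si-Rsl24d1 against si-CTL cells, either without rescue (4.18% of all genes called) or with it (1.36%). At an unadjusted p under 0.05 were 7 of the 10 and 7835 of the 16447 genes without rescue, and 5 and 5396 with it. By the adjusted p alone, 4 passed without rescue: Tpm1 (0.28) and Tagln (0.28) were higher, and Acta2 (-0.33) and Cnn2 (-0.30) lower. Of all genes, 14.3% were higher and 16.1% lower by that measure. Acta2 had 21.8, 22.7 and 22.4 TPM in si-Rsl24d1 cells, all under the 26.6 TPM of the lowest si-CTL library. With rescue, Acta2 differed by -0.60, Myl9 by -0.36 and Cnn2 by -0.27, past the adjusted p like 5.64% of all genes in that direction. The lower Acta2 at day 0 was thus present with rescue as well. The rescued si-Rsl24d1 cells had 14.9 to 18.0 TPM of Acta2, the lowest of the 8 groups. None of the 10 was called between rescued si-Rsl24d1 and unrescued si-CTL cells (1.33% of all genes called) or between rescued and unrescued si-Rsl24d1 cells (0.28%). At an unadjusted p under 0.05 were 6 of the 10 and 8035 of the 16447 genes in the first comparison, and 7 and 7062 in the second. In si-CTL cells, rescue at day 0 gave no call at all (0% of all genes), with 6739 genes and 1 of the 10 at an unadjusted p under 0.05. The median over all genes was -0.11 to -0.12 in these 3 comparisons. In the first pair of comparisons 5 and 3 of the 10 were lower by the adjusted p, against 20.4% and 12.2% of all genes. With median of ratios scaling 2 and 1 of the 10 were.

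At day 4 the same siRNA went with higher levels of 9 of the 10 genes. Without rescue, 5 rose past both thresholds in si-Rsl24d1 cells and none fell, against 1.63% of all genes called: Actc1, Actg2, Acta2, Myl9 and Cnn1. By the adjusted p alone 9 passed, against 24.9% of all genes passing it in the same direction. For those 9 every si-Rsl24d1 library lay above every si-CTL library, as for 37.1% of all genes. Acta1 was the exception. The median of the 10 was 0.87, while that of all genes was 0.13, so most genes were somewhat higher on this scale, and scaling each library by its median ratio to the others removed that shift. With that scaling 4 genes passed both thresholds, as Cnn1 dropped to 0.84, and Tpm1 was at 0.10, no longer past the adjusted p, and Acta1 at -0.29, past it.

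Actc1 moved most. Its TPM were 25.2, 26.9 and 24.8 in si-CTL and 95.3, 105 and 102 in si-Rsl24d1 cells, a difference of 1.94 (SE 0.12), or 3.94 times as many TPM. The groups lay far apart, and Actc1 drew level with Acta1 and Tpm2, which it had been far under in the controls. Actg2 had 0.937, 1.06 and 0.878 TPM in si-CTL and 4.58, 4.06 and 3.66 TPM in si-Rsl24d1 cells (1.38, SE 0.09), a low level but with no overlap.

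Acta2 had 308, 298 and 313 TPM in si-CTL and 625, 706 and 641 TPM in si-Rsl24d1 cells, a ratio of mean TPM of 2.15 and a difference of 1.10 (SE 0.08). It stood level with Tpm1 and Tagln at the top of the 10, with neighbours in that order overlapping. Myl9 had 40.5, 38.9 and 38.8 TPM in si-CTL and 80.6, 86.6 and 77.5 TPM in si-Rsl24d1 cells (1.03, SE 0.06). Cnn1 had 27.8, 22.5 and 27.4 against 53.3, 57.4 and 47.6 TPM (1.00, SE 0.10). All 3 genes were about as far apart between the groups on the log2 scale.

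The next genes passed the adjusted p but not 1.8-fold. Tagln was at 348 to 382 TPM in si-CTL and 592 to 647 TPM in si-Rsl24d1 cells (0.75), Tpm2 at 61.2 to 67.9 and 93.0 to 99.2 TPM (0.58), and Cnn2 at 94.9 to 106 and 136 to 151 TPM (0.48). Tpm1, the most abundant of the 10, was at 547 to 606 and 668 to 734 TPM (0.26). Acta1 overlapped between the groups, with 107, 92.8 and 116 TPM in si-CTL and 89.4, 109.8 and 89.9 TPM in si-Rsl24d1 cells. Among the muscle actins the skeletal isoform was thus the one with no increase, and its share of the muscle actin TPM was 24.0% ± 1.7 after si-CTL and 11.2% ± 0.59 after si-Rsl24d1.

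**Figure D4:**
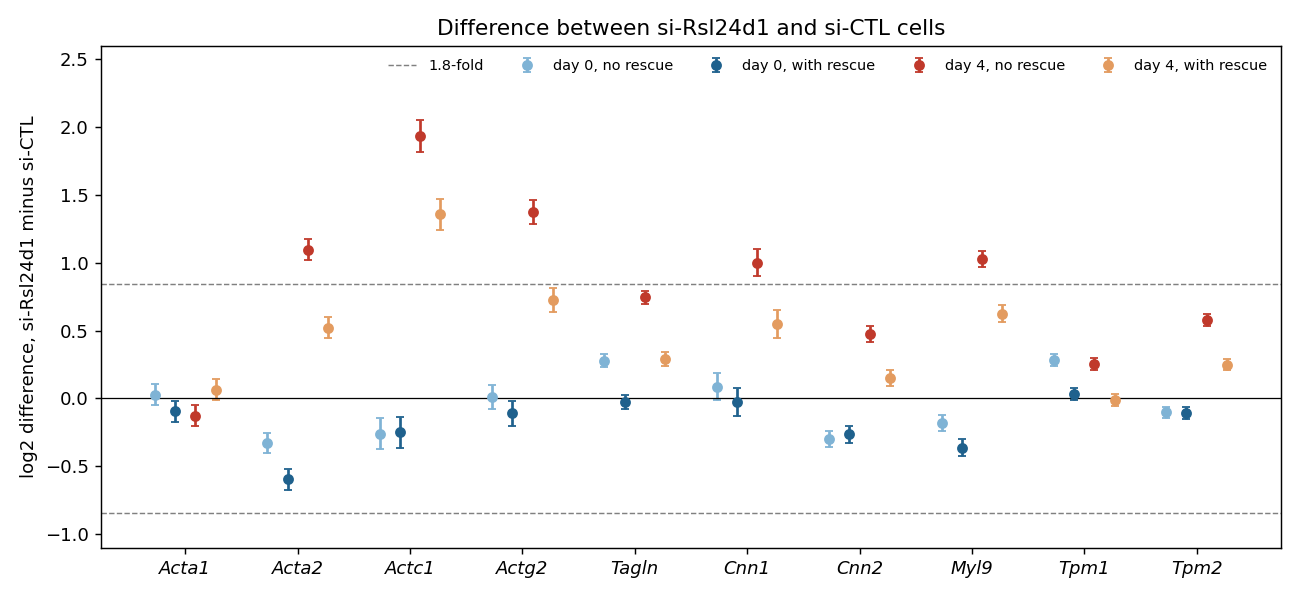
Difference in log2(TPM + 1) between si-Rsl24d1 and si-CTL cells for each gene on both days, without and with rescue, with standard errors from limma and dashed lines at 1.8-fold. At day 4 the points without rescue lie above those with rescue for all genes but Acta1, and at day 0 most lie near or under 0.

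The effect of the siRNA was tested for a difference between the days without rescue. Of the 10 genes, 5 passed both thresholds (5.61% of all genes called): Actc1 (2.20, SE 0.16), Acta2 (1.42, SE 0.11), Actg2 (1.36, SE 0.13), Myl9 (1.21, SE 0.09) and Cnn1 (0.91, SE 0.14). Cnn2 (0.77), Tpm2 (0.68) and Tagln (0.47) passed the adjusted p alone, so 8 passed it, against 22.1% of all genes in that direction. Tpm1 did not (-0.03), since it was higher by about the same amount on both days as deposited, and neither did Acta1 (-0.16). With median of ratios scaling Tpm1 was higher by 0.29 at day 0 and 0.10 at day 4, a difference of -0.19 that did not pass. Acta1 with that scaling was at -0.32 and passed the adjusted p. Acta2 changed direction between the days, from lower at day 0 to higher at day 4, and so did Cnn2. Cnn1 dropped under 1.8-fold in some settings: it was at 0.83 without day 0 si-CTL replicate 2, at 0.82 without day 4 si-CTL replicate 2 and at 0.76 with median of ratios scaling.

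Rescue with the ectopic Rsl24d1 left part of the difference at day 4. Between si-Rsl24d1 and si-CTL cells that both received doxycycline, 1 of the 10 rose past both thresholds (0.73% of all genes called), Actc1 at 1.36, with 66.5, 71.1 and 68.0 TPM against 27.5, 23.2 and 27.9 TPM. By the adjusted p alone 7 passed, all higher, against 2.33% of all genes: also Actg2 (0.73), Myl9 (0.63), Cnn1 (0.55), Acta2 (0.52), Tagln (0.29) and Tpm2 (0.25). Acta2 was at 472, 465 and 469.5 TPM in rescued si-Rsl24d1 cells, between the si-CTL and the unrescued si-Rsl24d1 libraries. Myl9 was at 56.2, 56.4 and 60.8 TPM, and Actg2 at 1.71, 2.31 and 2.01 TPM, both between the same groups without overlap. This order, unrescued si-Rsl24d1 above rescued si-Rsl24d1 above both si-CTL groups with no overlap, held for 8 of the 10 genes, all but Tpm1 and Acta1. How many of all genes show this order was not counted. Over the 9 genes that were higher without rescue, the difference with rescue was a median of 47.6% of that without it. It ran from -3.98% for Tpm1, where nothing remained, and 31.4% for Cnn2 up to 60.9% for Myl9 and 70.1% for Actc1. These percentages rest on the scaling, since the median over all genes was 0.13 without rescue and -0.04 with it. With median of ratios scaling each of the 9 differences was smaller without rescue and larger with it, so a larger part was left. For Acta2 they were 0.94 without rescue and 0.57 with it.

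Compared directly, the rescued si-Rsl24d1 cells at day 4 lay below the unrescued ones for 9 of the 10 genes, with no overlap of libraries. Of all genes, 24.0% did not overlap, in either direction. None of the 10 was called (0.0851% of all genes called), since no difference reached 1.8-fold. All 10 were at an unadjusted p under 0.05, as were 3984 of the 16447 genes. By the adjusted p alone 8 were lower, from Actg2 (-0.76), Actc1 (-0.55), Myl9 (-0.49) and Acta2 (-0.48) to Tpm1 (-0.26), against 4.23% of all genes lower by that measure. With median of ratios scaling 6 of the 8 stayed past it, not Actc1 and Tpm1, and Acta1 passed it in the other direction (0.32). In si-CTL cells at day 4, none was called with rescue against without (0.0547% of all genes called). At an unadjusted p under 0.05 were 1 of the 10 and 6407 of the 16447 genes. The differences ran from -0.13 for Tpm2 to 0.09 for Cnn1 and Acta2, and with median of ratios scaling Tpm2 (-0.26) passed the adjusted p, while 6 of the 10 values, Cnn1 and Acta2 included, turned from positive to negative. The share called rests on 9 genes, and was 0.00608% to 0.176% with 1 library left out.

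The effect of the siRNA was also tested for a difference between unrescued and rescued cells. With limma none of the 10 was called at day 0 (0.128% of all genes called). None was called at day 4 either (0.511%), in a comparison chosen after the values were seen. At an unadjusted p under 0.05 were 3 of the 10 and 2890 of the 16447 genes at day 0, and 9 and 6842 at day 4. By the adjusted p alone, the effect at day 4 was smaller with rescue for 6 genes, led by Actg2 (-0.65) and Acta2 (-0.57), against 8.25% of all genes in that direction. That count rests on the scaling, since the median over all genes was itself -0.17 here. With median of ratios scaling Acta2 (-0.37) was the 1 gene still lower by the adjusted p, and Acta1 (0.40) was higher.

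The related genes of the same families were read beside the 10. Of 10 such genes none was called in si-Rsl24d1 against si-CTL cells at day 4 without rescue. The largest difference with an adjusted p below 0.01 after that of Actb (0.59, adjusted p = 0.0041 with limma) was Tpm4, a non-muscle tropomyosin, at 0.53 (adjusted p = 2.1e-09), a larger difference than that of Tpm1 or Cnn2. Tagln2 (0.12, adjusted p = 0.043) and Myl6, a non-muscle and smooth muscle essential light chain (0.03, adjusted p = 0.63), did not pass. As a share of its family by TPM, Tagln went from 40.5% at day 0 to 63.4% at day 4 in si-CTL and to 72.9% in si-Rsl24d1 cells. Myl9 went from 1.72% of the regulatory light chains Myl9, Myl12a and Myl12b to 6.40% and 12.4%. Cnn1 went from 3.78% of the calponins to 6.69% and 10.7%, while Cnn3 held 75.5% at day 0 and 67.2% and 60.6% at day 4. In si-CTL cells Tpm1 replaced Tpm3 as the main tropomyosin, with 34.1% against 42.8% at day 0 and 55.9% against 19.7% at day 4. In si-Rsl24d1 cells the shares were about level at day 0, at 38.8% and 37.9%, and 53.6% and 17.8% at day 4. The tropomyosin makeup thus differed more between days than between siRNAs.

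Srf and its actin-sensing coactivators did not share 1 direction with RA across the conditions. In si-CTL cells without rescue, where the median of all genes was -0.10, Srf differed by -0.38 between day 4 and day 0 (adjusted p = 0.0011 with limma), Mrtfa by -0.44 (adjusted p = 4.5e-04) and Mrtfb by -0.41 (adjusted p = 0.0030). In rescued si-CTL cells the differences were 0.08 for Srf, 0.04 for Mrtfa and 0.27 for Mrtfb, with adjusted p of 0.43, 0.75 and 0.041. In si-Rsl24d1 cells Srf differed by -0.08 without rescue (adjusted p = 0.45) and 0.06 with it (adjusted p = 0.59). Mrtfb (0.58, adjusted p = 5.1e-04) and Mrtfa (0.34, adjusted p = 0.0077) had higher transcripts after si-Rsl24d1 than si-CTL at day 4 without rescue, and with rescue the differences were 0.08 (adjusted p = 0.72) and -0.0035 (adjusted p = 0.99). Mrtfb was already higher at day 0 without rescue (0.40, adjusted p = 0.0069), where Mrtfa was at 0.26 (adjusted p = 0.039), and the differences between days were 0.17 (adjusted p = 0.40) and 0.08 (adjusted p = 0.64). Myocd, the coactivator of smooth and heart muscle, was under the expression filter. It was at 0.592, 0.617 and 0.553 TPM at day 4 after si-Rsl24d1 without rescue against 0.198, 0.125 and 0.180 TPM in si-CTL cells, a low level without overlap. With rescue it was at 0.233, 0.1995 and 0.377 TPM after si-Rsl24d1 and 0.206, 0.303 and 0.5402 TPM after si-CTL, which overlapped, with the higher mean in si-CTL.

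Of 30 tested SRF target genes that are not among the 10, 4 rose past both thresholds at day 4 with si-Rsl24d1 and no rescue, and none fell, with a median of 0.56. They were led by Filip1l (1.36), the focal adhesion gene Tgfb1i1 (1.12) and the matrix gene Thbs1 (0.94). With rescue none was called, and the median was 0.04. By the adjusted p alone, 23 were higher without rescue, where 24.9% of all genes were, and 5 with it, where 2.33% were. Of 18 tested genes of the TGF-beta pathway, which induces this program in fibroblasts, 3 rose without rescue, led by Tgfb2 (1.22) and its binding protein Ltbp1 (0.92), and none with rescue. Of 15 genes of non-muscle actomyosin none was called in either. The SRF target and actomyosin lists share 5 genes, Actb and Actg1 among them. Some listed genes were past both thresholds after si-Rsl24d1 already at day 0 without rescue. Among these were the SRF targets Ccn1 (0.96) and Ccn2 (0.85), and Eng (2.08) and Ltbp2 (0.99) of the TGF-beta list.

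**Figure D5:**
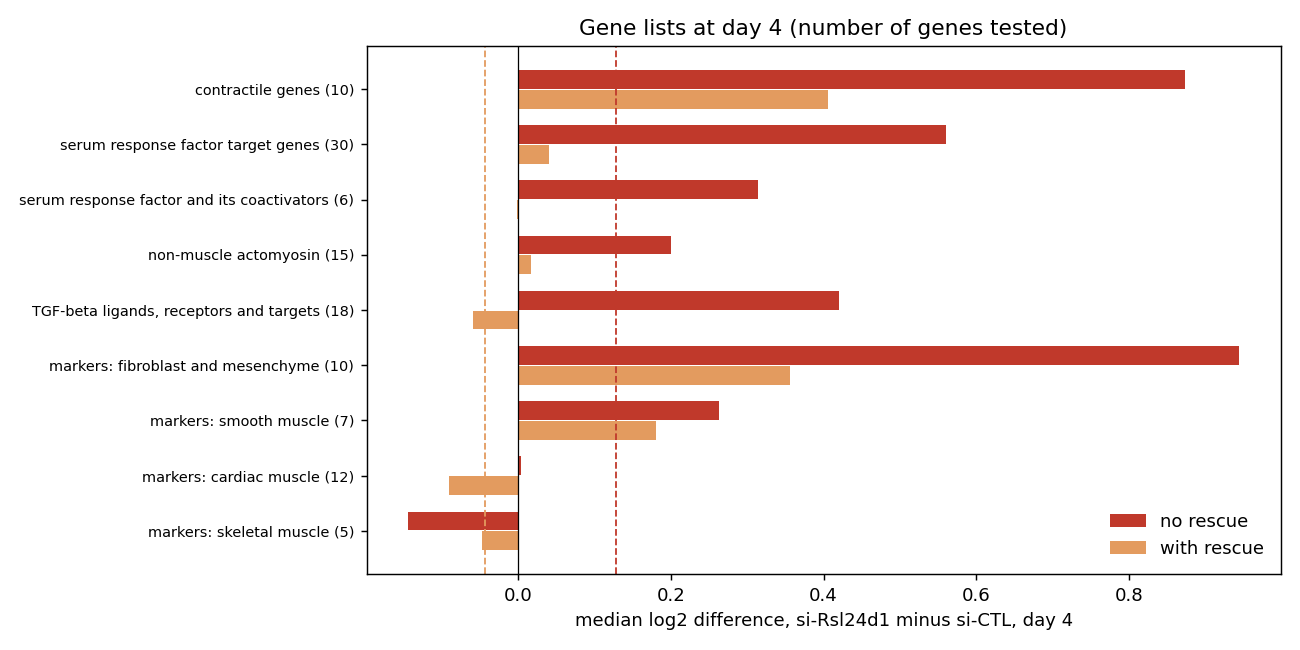
Median difference in log2(TPM + 1) between si-Rsl24d1 and si-CTL cells at day 4 for the 10 contractile genes and 8 other gene lists, without and with rescue, with the median of all genes tested as dashed lines. The contractile genes are at 0.87 and 0.41, and the fibroblast and mesenchyme markers at 0.94 and 0.36.

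Markers of cell types that could carry these transcripts were read beside them. Of 10 tested fibroblast and mesenchyme markers, 5 rose with si-Rsl24d1 at day 4 when there was no rescue, and none fell: Col3a1 (2.05), Prrx1 (1.79), Twist1 (1.51), Col1a1 (1.45) and Postn (1.31). With rescue 2 rose, Prrx1 (1.11) and Col3a1 (1.04). Their summed TPM over 11 genes were 114 to 121 in si-CTL and 228 to 301 in si-Rsl24d1 libraries without rescue. With rescue they were 140.1 to 160.3 and 184 to 202. This list, like most of the 10, was thus higher after si-Rsl24d1 at day 4, and less so with rescue. In si-CTL cells at day 4 the list was higher with rescue than without. The summed TPM of the 10 overlapped there, at 1589 to 1670 and 1532 to 1682. At day 0 without rescue the list was lower after si-Rsl24d1, at 33.2 to 35.4 against 40.5 to 49.9, though Twist1 was higher (0.97). The 10 together were then higher, at 546 to 580 against 504 to 508. The part of this list in their difference at day 4 was not tested.

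Markers of the muscle types differed widely in level. Of 7 tested smooth muscle markers outside the 10, Synm was past both thresholds after si-Rsl24d1 at day 0, without rescue (1.85) and with it (1.17). At day 4, 3 rose without rescue: Myh11, the smooth muscle myosin heavy chain (1.13), Itga8 (0.93) and Lmod1 (0.86). Myh11 was still at 2.18 TPM in si-Rsl24d1 cells, against 657 TPM of Acta2, while Des was at 38.9 TPM after si-CTL and 44.8 TPM after si-Rsl24d1. The summed TPM of 10 smooth muscle markers were 65.6 to 75.1 in si-CTL and 76.2 to 93.9 in si-Rsl24d1 libraries without rescue. With rescue they overlapped, at 79.7 to 82.8 and 80.1 to 81.6. Of 12 cardiac markers none rose without rescue and 1 fell, the heart troponin gene Tnnc1 (-1.02). Single cardiac markers went both ways at low levels. Nkx2-5 was at 1.21 TPM and Myh6 at 2.83 TPM in unrescued si-Rsl24d1 cells, against 0.493 and 2.20 TPM in si-CTL cells. Tnnt2 was at 1.77 TPM and Myl3 at 0.635 TPM, against 2.39 and 1.23 TPM. The heart actin Actc1 thus rose while the summed TPM of 14 cardiac markers overlapped, at 27.4 to 31.1 in si-CTL and 25.1 to 29.7 in si-Rsl24d1 libraries. The skeletal marker Ckm was called higher after si-Rsl24d1 at day 0 without rescue (1.90), but of 5 tested skeletal markers none was called at day 4. The summed TPM of all 11 listed overlapped, at 119.5 to 133 in si-CTL and 124 to 151 in si-Rsl24d1 libraries, and Mylpf, a fast skeletal myosin light chain, made up most of it at 106 and 114 TPM. Myod1 and Myf5 were under 0.1 TPM in every group at day 4, while Myf6 was listed at 0 in all si-CTL libraries of that day. Of 8 tested endoderm markers 3 rose, Lama1 (1.12), Gata6 (0.99) and Dab2 (0.87). The summed TPM over 12 such genes were 372 to 409.9 in si-CTL and 524 to 624 in si-Rsl24d1 libraries without rescue. With rescue they were 411 to 437 and 453 to 462. Sparc, which was not among the 3, made up most of the sum, at 333 and 464 TPM without rescue. Of 8 pluripotency markers none was called between the siRNAs at day 4. Of the neural markers Nes rose (1.17). None of the epithelial and endothelial markers was called. The pluripotency factor Pou5f1 was at 1112 TPM at day 0 and 519 TPM at day 4 with si-CTL. Nanog, another such factor, went the other way, from 184 to 319 TPM, and rose past both thresholds at day 4 in the other 3 conditions (1.03 to 1.20), so the pluripotency markers did not fall together.

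Among the genes tested outside the 10, the 5 whose levels over the 24 libraries were most like the mean standardised profile of the 10 were Postn (Pearson r = 0.995), Tnc (0.995), Crispld2 (0.994), Lmod1 (0.993) and Col12a1 (0.993). Postn, Tnc and Col12a1 encode extracellular matrix proteins. Tnc had a log2(TPM + 1) of 1.18 at day 0 and 3.78 at day 4 with si-CTL, and of 5.64 at day 4 with si-Rsl24d1. The 24 points share 1 table and fall into 2 days, so the likeness is given as a description. By Spearman correlation other genes came first, led by Igf2 (0.972), and Postn stood at 0.925. Within the 10, Myl9 was closest to the mean profile (r = 0.997) and Actg2 furthest (0.937), and over the 8 group means Acta1 and Actg2 were the least alike pair (r = 0.825).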

How the data were processed

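The authors quantified poly-A or total RNA libraries (the labels and the paper's methods differ) with Salmon, and tximport gave values per gene. What they deposited is log2(TPM + 1). The submitters' processing notes name Salmon 1.4.0, STAR 2.7.8a and a human build, while the methods name GRCm38. TPM sum to the same total in each library, so depth is unknown and no counting error can be given. The precision rests on 3 libraries per group, and an exact permutation test of 3 against 3 cannot go below p = 0.1.

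Genes averaging 0.5 or more in log2(TPM + 1) were fitted with limma 3.58.1 in R 4.3.3 (8 group means, intensity trend, two-sided, Benjamini-Hochberg adjustment over 16447 genes). Alternatives were 0.1 or 2 added to TPM, no filter or a filter at 1.5, a replicate block, fits limited to the compared groups, scaling by median of ratios, calls without the fold threshold and each library left out. The fit was tested on simulated data. The 10 genes, the comparisons and the gene lists were chosen with earlier results of these data known. Named are the 10 genes, Rsl24d1, their families, the SRF coactivators, at most 3 called genes a direction in each list (Col1a1, Postn Igf2 and single markers of cell identity were added after their values were seen), and the 5 genes of most similar profile. CArG boxes were sought in RefSeq promoters of GRCm38.p6 and shared words in gencode vM21 transcripts. Some results on other genes are not reported here.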

Additional observations from a re-analysis of the deposited data

Results flagged for a closer look

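The effect of the siRNA differed between day 0 and day 4 without rescue, by a test of the difference itself with limma, for 5 of the 10 genes: Actc1 (2.20 on the log2 scale), Acta2 (1.42), Actg2 (1.36), Myl9 (1.21) and Cnn1 (0.91). The genes were chosen with these levels known. The day 4 cells differ from the day 0 cells in medium, RA and time since transfection, which cannot be told apart here. Groups of 3 libraries are too small for a test of single outlying libraries.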

How the results depend on the processing

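Of the 16 counts of called genes among the 10, none moved by more than 1.5 times with a library left out. Leaving out libraries gave 7 to 8 genes for the day effect in si-CTL cells without and with rescue, 10 in si-Rsl24d1 cells, 5 for the siRNA at day 4 without rescue, 1 with rescue, and 4 to 5 for the difference between days. The counts over all genes moved by more than 1.5 times in 4 comparisons: for rescue, from 46 to between 33 and 83 in si-Rsl24d1 cells at day 0, from 14 to between 9 and 22 at day 4, and in si-CTL cells at day 4 from 9 to between 1 and 29 (without si-CTL replicate 3, no rescue), and for the difference between unrescued and rescued cells at day 4 from 84 to between 42 (without unrescued si-Rsl24d1 replicate 2) and 289 (without replicate 1 of that group). Without the fold threshold the counts were 4 for the siRNA at day 0, 3 with rescue, 5 for rescued si-Rsl24d1 against si-CTL cells and 3 for the rescue at day 0, then 9 for the siRNA at day 4, 7 with rescue, 8 for the rescue at day 4, 8 for the difference between days and 6 for that between unrescued and rescued cells. The shares of all genes passing the adjusted p are given above with these comparisons. With 0.1 added to TPM, 1 gene was called between rescued si-Rsl24d1 and unrescued si-CTL cells at day 0, Actc1.

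Replicate numbers did not pair the libraries (mean correlation of deviations -0.02 for the same number and 0.01 for other numbers), and replicate number as a block changed 0 of the 16 counts, with 5 genes called for the siRNA at day 4. Values that dropped below 1.8-fold were Cnn2 for the day in rescued si-CTL cells (0.75 with median of ratios scaling, 0.82 without day 0 replicate 3) and those of Cnn1 given above. With median of ratios scaling 15 of 160 values of the 10 genes turned sign, none past the adjusted p in either scaling. Of these, 5 belong to rescue in si-CTL cells at day 0, 6 to the same at day 4, and 1 is Tpm1 for the siRNA with rescue at day 4, at 0.039 with that scaling and from -0.045 to 0.012 with 1 library left out. For the difference between days Tpm1 ran from -0.077 to 0.0027 with 1 library left out. The cause was not tested. Low genes such as Actg2 are compressed by the 1 added to TPM.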
